A study of Rattus norvegicus with 36 samples.

Results

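Spp1 and a set of genes best known from osteoclasts were followed in the lungs of rats instilled with DQ-12, a crystalline silica dust used as a reference material for lung fibrosis. The set was defined by name and comprised every non-control array probe annotated to Spp1, Tnfrsf11a, Oscar, Itgb3, Dcstamp, Ocstamp, Atp6v0d2, Acp5, Ctsk or Gpnmb. Of these 10 names, 9 were found on the array, on 10 of its 36146 named probes, and all 9 genes passed the filter on low signal and were among the 23940 genes tested. Itgb3 was the gene with 2 probes, and the brighter one was used. Ocstamp had no probe under its own name. The DQ-12 against vehicle differences of these genes were known when the set was drawn up, so these differences are given as values and intervals. Where such a difference is said to pass or miss a limit of fold and adjusted p, this describes its value and is not counted as evidence.

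Osteoclasts are multinucleated cells of the macrophage lineage that resorb bone. Their precursors respond to the cytokines RANK ligand and CSF1, fuse, attach through an integrin, and pump acid and proteases onto the mineral surface. Several of the genes involved are also expressed by macrophages of other tissues, including alveolar macrophages, and Spp1 is a known marker of macrophages in fibrotic lung.

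Each group consisted of 6 female Sprague Dawley rats, 13 weeks old at instillation, that had received 10 mg of DQ-12 in saline through the trachea, or saline alone (vehicle). Animals were killed at D1, D30 or D180, and RNA from the accessory lobe of the lung was labelled with Cy3 and run on 1 single-color Agilent array per animal, 36 in all. The tissue was whole lobe, and no cell type had been purified. Because of this, more cells of a type and more RNA per cell cannot be told apart in any value below. The summed log2 signal of 8 alveolar type 2 cell markers, surfactant genes included, was 19.49 to 19.93 over all rats, as in lung.

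The values are log2 signals after quantile normalization, and a difference of 1 is a 2-fold change. Between 51.3 and 75.5% of probes were well above background on an array, and the median correlation between replicates was 0.973 to 0.981 in the 6 groups. The arrays were scanned on 11 dates, and no date held arrays of more than 1 time point. Where levels of a group are compared between time points below, time and scan date therefore cannot be told apart. At D1, the 6 DQ-12 arrays shared a scan date with 1 vehicle array, and the other 5 vehicle arrays came from different dates. Vehicle and DQ-12 were mixed on both dates of D30, and at D180 4 arrays of each group shared a date with the other group. Slides that held both groups numbered 1 at D1 (1 vehicle and 4 DQ-12 arrays), 3 at D30 (4 and 6) and 1 at D180 (1 and 1). Differences within a scan date or slide are given beside the results, and many of them rest on 1 array of a group.

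A gene was called a differentially expressed gene (DEG) at a change of at least 2-fold with an adjusted p under 0.05 (limma, Benjamini–Hochberg over all genes). By this rule 2 of the 9 genes were called at D1 (Spp1 and Gpnmb), 4 at D30 (with Atp6v0d2 and Ctsk) and 5 at D180 (with Tnfrsf11a), all of them higher after DQ-12. Over all genes tested, 2.02, 0.915 and 2.86% were called higher at D1, D30 and D180. The 6 exposed rats were all above the highest vehicle rat for 2, 5 and 6 of the 9 genes, against 5.23, 1.81 and 3.82% of all genes. The median log2 change of the 9 genes was 0.25 at D1, 0.80 at D30 and 1.06 at D180, and that of all genes was −0.01, −0.02 and −0.03. These counts describe genes that had been picked with the same differences in view, and nothing further is read from them.

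**Figure D1:**
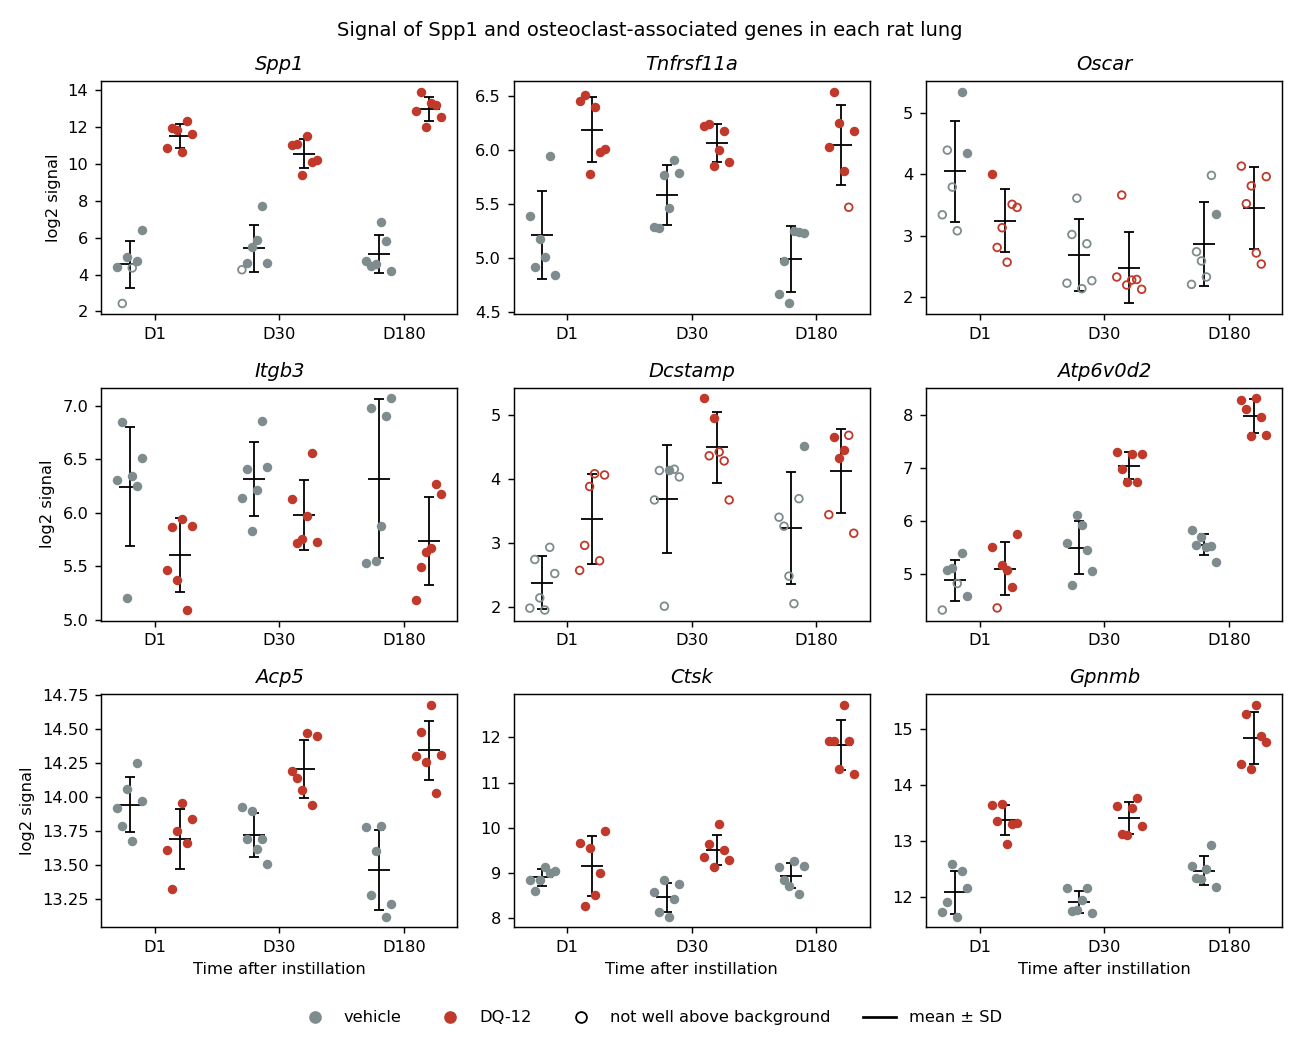
Log2 signal (y axis, a separate scale for each gene) of the 9 measured genes in each of the 36 rats at D1, D30 and D180, with vehicle rats in gray, DQ-12 rats in red, open circles for arrays where the probe was not well above background, and bars for the mean ± SD of 6 rats. Spp1 and Gpnmb are separated at all 3 time points, whereas Atp6v0d2 and Ctsk overlap at D1 and are separated at D30 and D180.

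Spp1 encodes osteopontin, a secreted phosphoprotein that binds mineral and is a ligand of integrins and of CD44. The sequence of its probe, which had 10 spots on each array, is shown because the largest difference rests on it.
Spp1 probe: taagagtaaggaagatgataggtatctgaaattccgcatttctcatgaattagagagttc
In vehicle rats the log2 signal ran from 2.43 to 6.41 (median 4.57) at D1, from 4.26 to 7.72 (median 5.07) at D30 and from 4.2 to 6.86 (median 4.66) at D180. In DQ-12 rats it ran from 10.66 to 12.35 (median 11.73), from 9.42 to 11.54 (median 10.63) and from 12 to 13.93 (median 13.03), respectively. The lowest DQ-12 rat of each time point was thus above the highest vehicle rat of that time point.
The log2 change of Spp1 was 6.99 at D1, 5.14 at D30 and 7.87 at D180 (SE 0.55 each), the largest positive value of the 23940 genes at each time point. On a linear scale this was 127-fold (95% confidence interval 58.7 to 277), 35.1-fold (16.2 to 76.3) and 233-fold (107 to 506). Among DQ-12 groups the order was D180, D1, D30, and both gaps (1.43 and 0.98) exceeded the SD of the neighboring groups although their ranges overlapped. The 3 vehicle groups did not differ beyond their spread. Not every vehicle array measured Spp1 above background: the probe was well above it on 4, 5 and 6 of 6 vehicle arrays, and on all 18 DQ-12 arrays.
With normexp background correction, an alternative to the subtraction used by the scanner software, the log2 change of Spp1 was 4.94, 3.70 and 6.19. Within scan dates and slides that held both groups, the difference was 6.57 to 6.77 at D1, 3.96 to 5.15 at D30 and 6.00 to 8.71 at D180. Both values at D1 rest on 1 vehicle array, and both extremes at D180 compare 1 DQ-12 with 1 vehicle array.

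The 10 spots give the error of Spp1 between spots of 1 array. They share the RNA sample, labelling, hybridization and scan, so the SD between rats also holds the error of those steps. Within a DQ-12 array the spots had a median SD of 0.04 to 0.07, while the SD between DQ-12 rats was 0.65 to 0.78. In vehicle rats the spots had a median SD of 0.25 to 0.28 and the rats one of 1.02 to 1.28. The spread of Spp1 from rat to rat was therefore larger than the spread between spots of 1 array in all 6 groups. The same held for Gpnmb, with 0.04 to 0.06 between spots and 0.20 to 0.46 between rats.

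Tnfrsf11a encodes RANK, the receptor through which RANK ligand drives osteoclast formation. Its probe is shown since the call at D180 was decided by single rats.
Tnfrsf11a probe: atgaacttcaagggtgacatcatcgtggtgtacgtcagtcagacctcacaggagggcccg
At D1 the log2 signal of vehicle rats spanned 4.84 to 5.94 with a median of 5.10, and that of DQ-12 rats 5.78 to 6.51 with a median of 6.20. At D30 vehicle rats spanned 5.28 to 5.91 (median 5.61) and exposed rats 5.85 to 6.24 (median 6.09). At D180 vehicle rats spanned 4.58 to 5.25 (median 5.10) and exposed rats 5.47 to 6.54 (median 6.11). The groups overlapped at D1 and D30 and were separated at D180.
The log2 change of Tnfrsf11a was 0.98, 0.48 and 1.06 (SE 0.18 each). The receptor was at much the same level in the 3 DQ-12 groups, whose means (6.05 to 6.19) differed by less than their SD. Its values lay near the 2-fold limit. At D180 the change was 0.99 without vehicle replicate 1, 0.98 without vehicle replicate 3 and 0.96 without DQ-12 replicate 2, each just under the limit. At D1 it was 1.01 without vehicle replicate 1, 1.12 without vehicle replicate 5, and 1.06, 1.02 and 1.01 without DQ-12 replicates 3, 5 and 6, each past it. With 75th percentile scaling it was 0.97 at D180, with normexp 0.46 and with slide as a block 0.78. All differences within scan dates and slides were positive (0.26 to 1.44 over the 3 time points).

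Oscar, a collagen-binding receptor that co-stimulates osteoclast precursors, was too dim to follow. Its probe was well above background on 2 vehicle arrays and 1 DQ-12 array at D1, on 0 at D30, and on 1 vehicle array at D180. The log2 signal was 2.13 to 5.34 over all 36 rats, and the groups overlapped at each time point. The log2 change was −0.80 at D1 and 0.58 at D180 (SE 0.36 each), and none is given for D30, where neither group was above background. The D1 value was −1.22 under 75th percentile scaling, which passed the call rule, −0.16 with normexp, and −0.54 and −0.43 within the scan date and the slide that held both groups.

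Itgb3 encodes the β3 integrin subunit, which pairs with αv to bind osteopontin and is also abundant on platelets. Its 2 probes are printed together because they gave different directions.
Itgb3 probe used: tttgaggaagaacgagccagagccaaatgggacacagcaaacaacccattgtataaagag
Itgb3 other probe: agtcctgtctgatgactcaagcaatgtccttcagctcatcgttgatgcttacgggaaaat
By the probe used, vehicle rats spanned a log2 signal of 5.20 to 6.85 (median 6.33) at D1, and exposed rats 5.09 to 5.94 (median 5.67). At D30 vehicle rats spanned 5.83 to 6.86 (median 6.31) and exposed rats 5.72 to 6.56 (median 5.86). At D180 vehicle rats spanned 5.53 to 7.07 (median 6.39) and exposed rats 5.18 to 6.27 (median 5.65). The groups overlapped at each time point.
By this probe Itgb3 had log2 changes of −0.64, −0.34 and −0.58 (SE 0.27 each). The other probe gave 0.32, 0.57 and 0.06 (SE 0.27 each) and was well above background on 2 to 5 of 6 arrays per group. In the scan date and the slide of D1 that held both groups, the probe used gave 0.40 and 0.25, above 0. The direction of Itgb3 is therefore not settled by these arrays.

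Dcstamp encodes a membrane protein needed for the fusion of osteoclast precursors. RefSeq did not list the accession of its probe under this symbol, so its identity rests on the gene name in the array files. Dcstamp was dim as well, well above background on 0, 1 and 1 vehicle arrays and on 0, 2 and 3 DQ-12 arrays at D1, D30 and D180. The log2 signal ran from 1.95 to 4.52 in vehicle and from 2.57 to 5.26 in DQ-12 rats, with overlap at each time point. The log2 change was 0.80 at D30 and 0.88 at D180 (SE 0.39 each), under the 2-fold limit, and none is given for D1, where neither group was above background. Leaving out each rat gave 0.46 to 0.96 at D30 and 0.65 to 1.14 at D180, where the value passed the call rule without vehicle replicate 6 (1.14) and with scan date as a block (1.48). With normexp the values were 0.14 and 0.11, and within scan dates and slides they were 0.14 to 2.56 at D30 and 1.39 to 1.50 at D180.

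For Ocstamp, the partner of Dcstamp in fusion, 3 probes carried its RefSeq accession under another name. A pair of them was named Zfp334 in the array files, and the third, without a gene symbol, was well above background on 1 of 36 arrays. Ocstamp was therefore counted as not measured.

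Atp6v0d2 encodes the d2 subunit of the vacuolar proton pump, found in osteoclasts and some macrophages, where it acidifies lysosomes and the resorption space. Its probe is shown because its groups were mixed at D1 and separated from D30 on.
Atp6v0d2 probe: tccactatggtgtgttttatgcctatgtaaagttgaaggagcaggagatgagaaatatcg
At D1 vehicle rats spanned a log2 signal of 4.32 to 5.39 (median 4.94) and exposed rats 4.36 to 5.75 (median 5.12), with the groups mixed. At D30 the spans were 4.80 to 6.11 (median 5.53) for vehicle and 6.73 to 7.29 (median 7.11) for DQ-12. By D180 they were 5.22 to 5.83 (median 5.53) and 7.59 to 8.31 (median 8.03). From D30 on, each DQ-12 rat was above each vehicle rat.
Atp6v0d2 had a log2 change of 0.22 (95% confidence interval −0.22 to 0.66) at D1, 1.55 (1.11 to 1.99) at D30 and 2.42 (1.98 to 2.86) at D180, or 1.16, 2.92 and 5.35-fold. Among exposed rats the 3 time points did not overlap, with D180 highest and D1 lowest. Within scan dates and slides the difference was −0.16 and −0.01 at D1, 0.88 to 1.60 at D30 and 2.31 to 2.76 at D180. With normexp the D30 value was 0.73, under the 2-fold limit.

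Acp5 encodes tartrate-resistant acid phosphatase, the classical histochemical marker of osteoclasts that alveolar macrophages also make. Vehicle rats spanned a log2 signal of 13.68 to 14.25 (median 13.95) at D1 and exposed rats 13.32 to 13.96 (median 13.71), again with overlap. At D30 the spans were 13.51 to 13.93 (median 13.69) for vehicle and 13.94 to 14.47 (median 14.17) for DQ-12. By D180 they were 13.12 to 13.79 (median 13.44) and 14.03 to 14.68 (median 14.31). The groups did not overlap at D30 and D180.
For Acp5 the log2 change was −0.25, 0.48 and 0.88 (SE 0.13 each), or 0.84, 1.40 and 1.84-fold, and it stayed under the 2-fold limit at all 3 time points. The value at D1 was below 0 in the scan date and the slide with both groups too (−0.37 and −0.47). At D30 and D180 the differences within batches were 0.24 to 0.75. From D1 to D180 the mean of Acp5 went from 13.94 to 13.46 in vehicle rats and from 13.69 to 14.34 in DQ-12 rats. Both groups thus enter the growth of its effect given below.

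Ctsk encodes cathepsin K, the collagen-degrading protease of osteoclasts. Vehicle rats spanned a log2 signal of 8.60 to 9.14 (median 8.92) at D1 and exposed rats 8.27 to 9.92 (median 9.28). At D30 the spans were 8.04 to 8.84 (median 8.51) for vehicle and 9.14 to 10.09 (median 9.43) for DQ-12. By D180 they were 8.55 to 9.27 (median 8.98) and 11.20 to 12.72 (median 11.92). At D1, DQ-12 rats lay on both sides of the vehicle rats, with 3 above and 2 below all of them.
Ctsk had a log2 change of 0.25 (−0.24 to 0.74) at D1, 1.04 (0.55 to 1.53) at D30 and 2.88 (2.40 to 3.37) at D180, or 1.19, 2.06 and 7.38-fold. The lowest DQ-12 rat of D180 was above the highest rat of every other group. At D30 the change was near the limit, at 0.98 without vehicle replicate 2, 0.96 without vehicle replicate 4 and 0.93 without DQ-12 replicate 4. With normexp it was 0.93, and with slide as a block it was 1.09 (SE 0.31), and neither passed the call rule. Within scan dates and slides it was 0.79 to 1.29 at D30 and 2.66 to 3.08 at D180.

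Gpnmb encodes a membrane glycoprotein of lysosomes and melanosomes that is made by osteoclasts and by lipid-laden macrophages. Vehicle rats spanned a log2 signal of 11.66 to 12.60 (median 12.04) at D1 and exposed rats 12.96 to 13.67 (median 13.35). At D30 the spans were 11.72 to 12.16 (median 11.86) for vehicle and 13.11 to 13.77 (median 13.43) for DQ-12. By D180 they were 12.19 to 12.94 (median 12.43) and 14.29 to 15.43 (median 14.83). The groups were separated at all 3 time points, as for Spp1.
The log2 change of Gpnmb was 1.29, 1.50 and 2.36 (SE 0.18 each), or 2.44, 2.82 and 5.13-fold. The D1 value was smaller against the vehicle array scanned on the same date (0.78) and on the same slide (0.90), and with scan date or slide as a block Gpnmb was not called at D1. At D30 and D180 the differences within batches were 1.48 to 1.82 and 1.87 to 2.53. Of 4 melanocyte markers tested, 0 were called at any time point. Dct was well above background on 0 of 36 arrays and Tyr on 1. Pmel was so on at most 1 of 6 arrays of a group, and Mlana on at most 3.

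**Figure D2:**
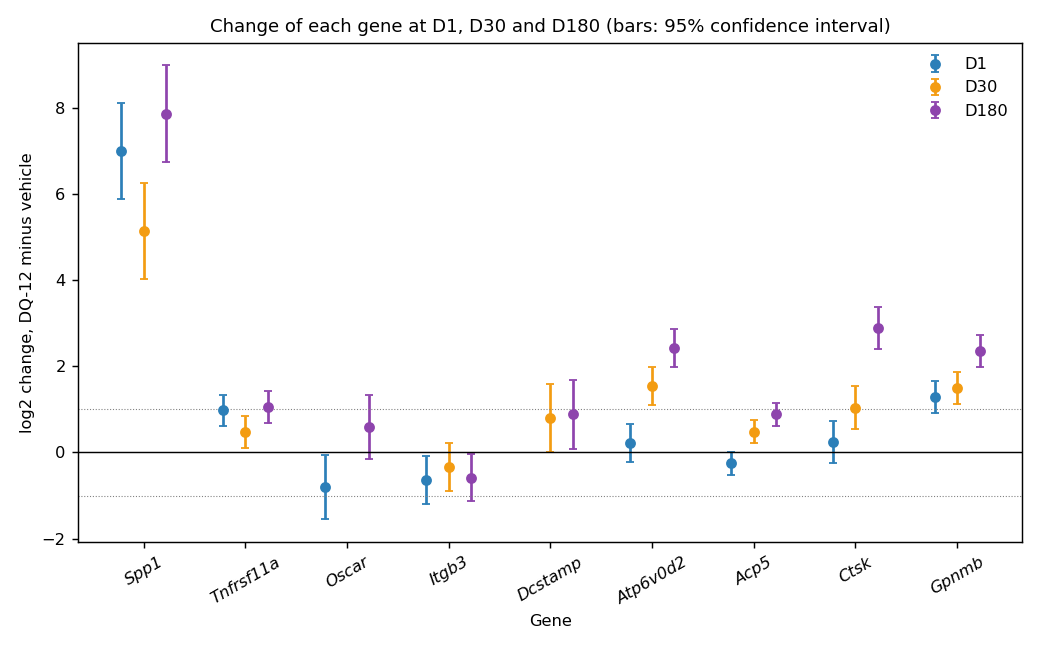
Log2 change, DQ-12 minus vehicle (y axis), of each gene (x axis) at D1 (blue), D30 (orange) and D180 (purple) with 95% confidence intervals from limma, and dotted lines at 2-fold; no point is drawn for Oscar at D30 and Dcstamp at D1, where neither group was above background. Spp1 changed by 5.14 to 7.87 at all 3 time points, while the values of Atp6v0d2, Acp5 and Ctsk go from near or below 0 at D1 to 2.42, 0.88 and 2.88 at D180.

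The change of the DQ-12 effect from one time point to another was taken as an interaction term in the same fit (limma). It is the difference of values that were known when the set was drawn up, so it is given with its interval as a description, without a test. From D1 to D180 the effect grew for Ctsk by 2.63 (95% confidence interval 1.94 to 3.33), for Atp6v0d2 by 2.20 (1.58 to 2.82), for Acp5 by 1.14 (0.76 to 1.51) and for Gpnmb by 1.07 (0.54 to 1.60). These 4 of 9 genes met the call rule, which 1.55% of all genes met. From D1 to D30 it was met by Atp6v0d2 (1.33, interval 0.71 to 1.95) and by 0.944% of all genes, and from D30 to D180 by Ctsk (1.84, interval 1.15 to 2.53) and by 0.138%. Acp5 was within the adjusted p limit from D1 to D30 (0.74, interval 0.36 to 1.12), at less than 2-fold, as were 2.18% of all genes at any fold. Nothing further is read from these counts.

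The values of Spp1 had another order. Its effect was lower at D30 than at D1 by 1.86 (95% confidence interval 0.28 to 3.44), and higher at D180 than at D30 by 2.73 (1.15 to 4.31). Between D1 and D180 it differed by 0.87 (−0.71 to 2.45). None of the 3 met the call rule, and the width of the intervals leaves room for changes of several fold. With normexp the step from D30 to D180 was 2.5 and met it. For Tnfrsf11a the effects at D1 and D180 differed by 0.08 (−0.44 to 0.60). For Oscar they differed by 1.39 (0.34 to 2.43), and by 1.74 in the deposited log2 values, where the difference met the call rule. Oscar was near background in these groups. Its mean at D1 and D180 was 4.05 and 2.87 in vehicle rats, and 3.25 and 3.45 in DQ-12 rats.
Values that involve D1 rest on vehicle arrays scanned apart from the DQ-12 arrays. With scan date as a block, Ctsk (2.45), Atp6v0d2 (2.34) and Acp5 (1.03) met the call rule from D1 to D180. Gpnmb (1.49) did not, nor did Atp6v0d2 from D1 to D30 (1.24) or Ctsk from D30 to D180 (1.72). With slide as a block, D180 rests on 1 array of each group. The D1 to D180 values were then 2.92 for Atp6v0d2, 2.37 for Ctsk, 0.99 for Acp5 and 0.97 for Gpnmb. Without the 5 vehicle arrays scanned apart, 1 vehicle array remains at D1. The D1 to D180 values were then 2.56 for Ctsk, 2.43 for Atp6v0d2, 1.25 for Acp5 and 1.58 for Gpnmb. With normexp the step of Atp6v0d2 from D1 to D30 was 0.64, under the 2-fold limit. The Gpnmb difference also fell under 2-fold without vehicle replicate 3 (0.97) or 5 (1.00) of D1, DQ-12 replicate 4 of D1 (0.99), or DQ-12 replicate 2 (0.99) or 4 (0.95) of D180.

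The vehicle rats, which had received no silica, were also compared between time points. Their values are part of the differences known when the set was drawn up, so the p values here are a description. Oscar was lower at D30 than at D1 (log2 difference −1.36, SE 0.36, adjusted p = 0.0212) and at D180 than at D1 (−1.18, SE 0.36, adjusted p = 0.0327). Dcstamp was higher at D30 than at D1 (1.31, SE 0.39, adjusted p = 0.0379). Both were near background even in the higher group. Oscar was well above it on 2 of 6 vehicle arrays at D1, and Dcstamp on 1 of 6 at D30. The size of these differences is therefore not settled. Acp5 (−0.48, adjusted p = 0.0154) and Atp6v0d2 (0.67, adjusted p = 0.0415) differed between D1 and D180 by less than 2-fold, where 10.6% of all genes passed the adjusted p. By the full call rule, 2.74% and 1.74% of all genes were called from D1 to D30 and from D1 to D180. The time points were scanned on separate dates, so time and scan date cannot be told apart here, and with scan date as a random block 0 of the 9 genes were called. Single rats mattered as well. Oscar from D1 to D30 lost its call without vehicle replicate 2 (−1.29) or 5 (−1.10) of D1 or 4 of D30 (−1.25), and from D1 to D180 without replicate 2, 5 or 6 of D1 or 1, 2, 3 or 4 of D180 (−0.92 to −1.16). Dcstamp lost it without replicate 1, 2, 3, 4 or 6 of D1 or 2, 4, 5 or 6 of D30 (1.22 to 1.38). Spp1 differed by 0.88 (−0.24 to 2.00) from D1 to D30 and by 0.56 (−0.56 to 1.68) from D1 to D180.

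The genes were next compared from rat to rat among the 18 DQ-12 lungs, after removing the mean of each time point, which the choice of the set had not used. The deviations of Spp1 and Gpnmb correlated with r = 0.50 and rho = 0.43 (p = 0.046 and 0.0893, permutation test within time points, 2-sided; adjusted over 8 genes, p = 0.368 and 0.553). Without the 2 rats farthest from the median of Spp1, r was 0.30. For Ctsk, r was 0.38 and rho 0.37 (permutation p = 0.127 and 0.138, adjusted p = 0.509 and 0.553), and 0.24 without those 2 rats. For the other 6 genes r lay between −0.18 and 0.17, and their permutation p between 0.503 and 0.968. Thus 0 of 8 genes passed the adjusted threshold by the permutation test, and 1 had an unadjusted p under 0.05. Of 14308 other genes bright enough to compare, 98.6% had a lower r with Spp1 than Gpnmb had, and 95.6% a lower r than Ctsk.

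Over all 36 pairs of the 9 genes, a family added after the first 8 pairs were seen, 1 pair passed the adjusted threshold. Atp6v0d2 and Ctsk, a pump subunit and a protease of the same resorption machinery, correlated with r = 0.79 and rho = 0.75 (permutation p = 0.00066 and 0.00247, adjusted p = 0.0238 and 0.0889 over 36 pairs). Within D1, D30 and D180 r was 0.87, 0.32 and 0.89, each over 6 rats. It was 0.67 without the 2 rats farthest from the median of Atp6v0d2, 0.81 with scan date also removed (permutation, adjusted p = 0.067) and 0.96 with slide removed. The share of all genes with a lower r was not taken for this pair, and the cause of its correlation was not tested. Next came Atp6v0d2 and Acp5 (r = 0.62, permutation, adjusted p = 0.192) and Ctsk and Gpnmb (r = 0.55, permutation, adjusted p = 0.300), which did not pass. For Spp1 and Atp6v0d2 r was 0.17, and within D1, D30 and D180 it was −0.45, 0.69 and 0.69. Within the same time points r was −0.04, 0.81 and 0.64 for Spp1 and Ctsk, and 0.24, 0.34 and 0.80 for Spp1 and Gpnmb. Each of these values rests on 6 rats and was not tested.

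**Figure D3:**
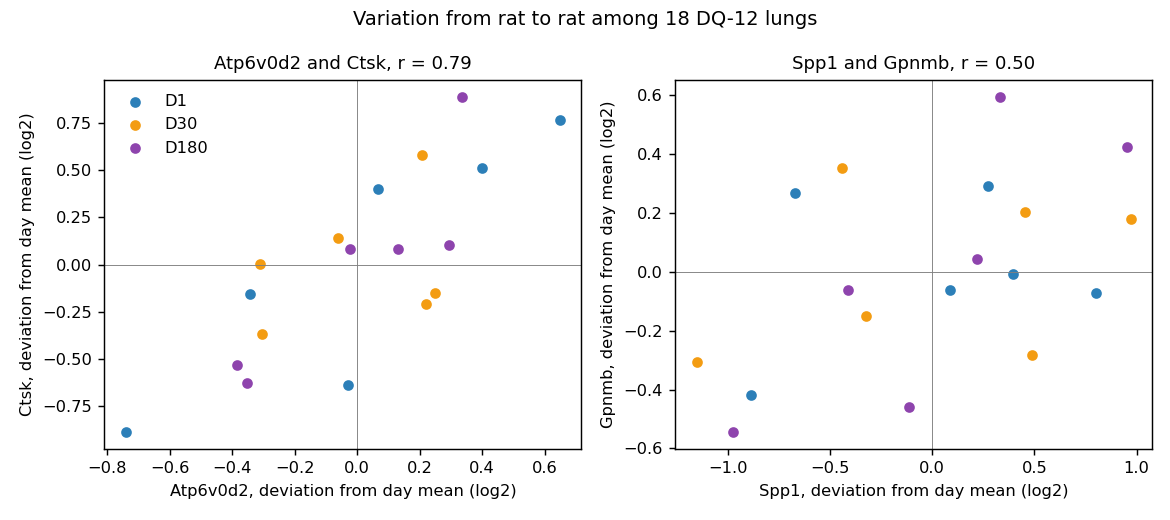
Deviation of each of 18 DQ-12 rats from the mean of its time point, in log2 units, for Ctsk against Atp6v0d2 (left) and Gpnmb against Spp1 (right), with D1 in blue, D30 in orange and D180 in purple. The rats lie closer to a line on the left (r = 0.79) than on the right (r = 0.50).

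The 10 other genes whose deviations were most like those of Spp1 over the 18 lungs were Ccl7 (r = 0.83), Malt1 (0.76), Fabp4 (0.75), LOC686030 (0.72), Slc26a11, LOC102547595, Lig3, Tmsb10 (0.71 each), Ran and Mcoln3 (0.69 each). They are the top of 14308 values and carry no test. Ccl7, a chemokine that attracts monocytes, was also called higher at D1, D30 and D180 (log2 change 2.78, 3.34 and 4.80), and Fabp4, a fatty acid-binding protein of alveolar macrophages, at D30 and D180 (1.12 and 2.53). The other 8 were not called at any time point. None of the other 8 measured genes of the set was among the 10.

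Next, 45 other genes of the osteoclast pathway were listed by role, none of them in the set, and all 45 were tested. After DQ-12, the call rule was passed by 0 of them at D1, by 1 (2.22%) at D30 and by 6 (13.3%) at D180, all higher. Over all genes, 3.07, 1.05 and 3.63% were called in either direction. The list was drawn up with earlier results of these data known, so its counts and p values are a description and not independent support. The median log2 change of the list was 0.02, 0.16 and 0.22. By the adjusted p alone, 4 genes were higher and 2 lower at D1, 6 and 1 at D30, and 14 and 7 at D180, where 16.2, 3.98 and 16.8% of all genes passed it in either direction.
Among the ligands, Csf1, the growth factor of macrophages and osteoclast precursors, rose at D180 (1.16, SE 0.12, adjusted p = 2.71e-08), and had passed the adjusted p at less than 2-fold at D1 (0.83) and D30 (0.94). Il34, the other ligand of the CSF1 receptor, was lower by less than 2-fold at D180 (−0.72, adjusted p = 0.000101). Tnfsf11, which encodes RANK ligand, was at background, with at most 1 of 6 arrays of a group well above it. Tnfrsf11b, which encodes the decoy receptor osteoprotegerin, had changes of −0.54, −0.25 and −0.69, the last with an adjusted p of 0.0126. The CSF1 receptor gene Csf1r had 0.03, −0.63 and 0.05, with no adjusted p under 0.05.
Of the receptors that signal through ITAM adaptors, Trem2, a lipid receptor of macrophages, rose at D30 (3.17, SE 0.21, adjusted p = 4.96e-12) and D180 (3.58, SE 0.21, adjusted p = 1.55e-13), with each exposed rat above each vehicle rat. At D1 its change was 0.71 (adjusted p = 0.0208). The adaptor genes Tyrobp and Fcer1g were higher at D180 by less than 2-fold (0.85 and 0.66). The kinase gene Btk rose at D180 by a change at the limit (1.00, adjusted p = 0.000142). It fell under the limit without vehicle replicate 2 (0.93), 5 (0.99) or 6 (0.91) or DQ-12 replicate 1 (0.99) or 2 (0.93), and was 0.54 with slide as a block (adjusted p = 0.697).
Of the transcription factors, Nfatc1, the principal regulator of osteoclast formation, had changes of −0.25, −0.07 and 0.00 (SE 0.10 each). None of the 3 had an adjusted p under 0.05 (0.0664, 0.822 and 0.992). Spi1, which encodes PU.1, was higher by less than 2-fold at D180 (0.93, adjusted p = 0.000149).
Among the genes for acid and matrix digestion, Tcirg1, the a3 subunit of the proton pump, rose at D180 (1.24, SE 0.14, adjusted p = 8.72e-08), as did the metalloprotease genes Mmp14 (1.35, SE 0.12, adjusted p = 1.10e-09) and Mmp9 (2.00, SE 0.48, adjusted p = 0.00289). Mmp9 was dim and well above background on 4 of 6 vehicle and 5 of 6 DQ-12 arrays. With slide as a block, a fit that at D180 rests on 1 vehicle and 1 DQ-12 array, these 3 changes were 0.99, 1.09 and 2.48. With scan date as a block Mmp9 was 1.74 (adjusted p = 0.0666), and with normexp it was 0.78. The chloride exchanger gene Clcn7 and carbonic anhydrase gene Ca2 had changes of 0.45 and 0.04 at D180, with no adjusted p under 0.05.
Of the receptors of osteopontin, Cd44 was higher by less than 2-fold at D180 (0.63, adjusted p = 6.29e-05), while Itgav, the partner of Itgb3, had changes of 0.14, 0.25 and 0.01. Itga9, Itgb1 and Itgb5, which belong to other osteopontin-binding integrins, were lower at D180 by less than 2-fold (−0.54, −0.33 and −0.74, adjusted p = 9.19e-05, 0.000786 and 2.44e-06).

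**Figure D4:**
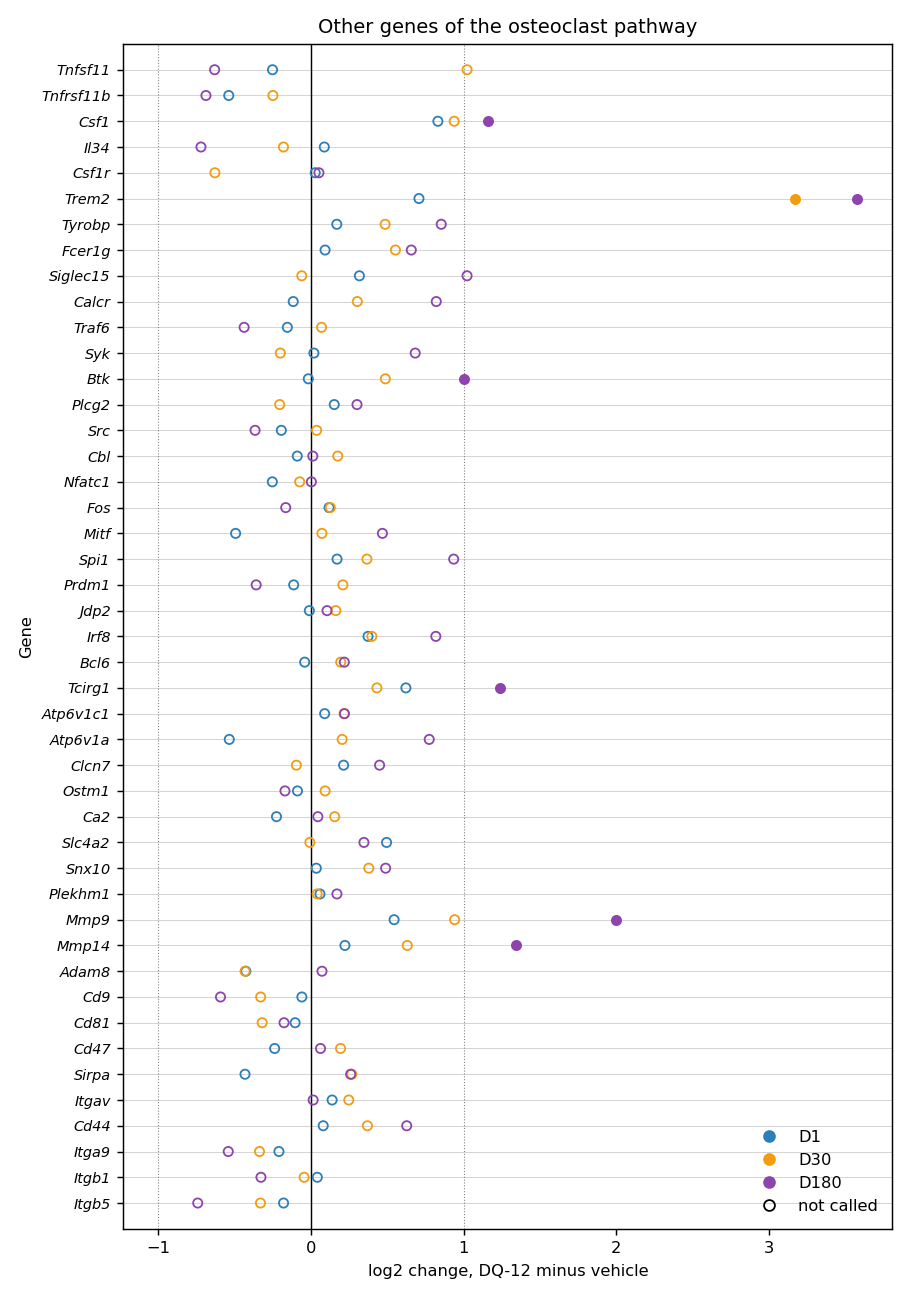
Log2 change, DQ-12 minus vehicle (x axis), of 45 other osteoclast pathway genes (y axis, in the order ligands, receptors, signaling, transcription factors, acid and protease genes, fusion and adhesion genes) at D1 (blue), D30 (orange) and D180 (purple), filled where called and with dotted lines at 2-fold. Filled points are Trem2 at D30 and D180, and Csf1, Btk, Tcirg1, Mmp9 and Mmp14 at D180.

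A second list held 20 genes that accompany Spp1 in macrophages of fibrotic lung, of which Trem2 and Cd9 are also on the first list. All were tested, and the call rule was passed by 2 (10%) at D1, by 5 (25%) at D30 and by 6 (30%) at D180, all higher, where 3.07, 1.05 and 3.63% of all genes were called. This list too was drawn up with earlier results of these data known, so its counts and p values are a description. By the adjusted p alone, 8 were higher and 2 lower at D1, 11 and 0 at D30, and 15 and 3 at D180. The median log2 change was 0.15, 0.41 and 0.70. Mmp12, the macrophage elastase gene, rose at D1 (3.36), D30 (3.61) and D180 (4.91, SE 0.29, adjusted p = 1.55e-13), and Chi3l1, a chitinase-like secreted protein gene, rose by 1.95, 1.89 and 2.29 (SE 0.19, largest adjusted p = 2.43e-08). Pla2g7, a lipoprotein-associated phospholipase gene, rose at D180 (2.36, SE 0.19, adjusted p = 7.72e-11). Lgals3, which encodes galectin-3, rose at D30 (1.02) and D180 (1.21, adjusted p = 9.47e-09), and Fabp5, a fatty acid-binding protein gene, at D30 (1.23) and D180 (1.01, adjusted p = 0.00144). At D30 Fabp5 was 0.88 with scan date as a block. Lgals3 at D30 was under the limit with 75th percentile scaling (0.96), and without vehicle replicate 2 (0.95) or DQ-12 replicate 1 (0.96). At D180 Fabp5 was under it without vehicle replicate 2 (0.87) or 3 (0.98) or DQ-12 replicate 2, 3 or 4 (0.96, 1.00 and 0.96). Not all members of the list were higher: Cd9 (−0.59), Sdc2 (−0.55) and Mertk (−0.41) were lower at D180 by less than 2-fold, with adjusted p of 0.00308, 2.38e-05 and 0.0343.

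Some markers of macrophages and neutrophils rose after DQ-12 as well. The marker lists were also chosen with earlier results of these data known. Of 14 macrophage markers, 0, 3 and 4 were called higher at D1, D30 and D180, against 2.02, 0.915 and 2.86% of all genes, the last being Cd68 (1.55), Aif1 (1.05), Siglec1 (1.96) and Fabp4 (2.53). Others of the list did not rise: at D180 Cd163, a scavenger receptor gene, was lower by less than 2-fold (−0.89, adjusted p = 0.00191), with each exposed rat below each vehicle rat, and Mrc1 and Pparg had changes of −0.31 and −0.09. The log2 of their summed signal was 14.89 to 15.19 in vehicle and 15.12 to 15.38 in DQ-12 rats at D1, 14.57 to 14.94 and 15.24 to 15.72 at D30, and 14.66 to 15.23 and 15.79 to 16.04 at D180. Of 8 neutrophil markers, 1, 2 and 4 were called higher. At D180 these were S100a8 (1.56), S100a9 (2.57), Csf3r (1.11) and Cxcr2 (1.55), and the summed log2 signal of the list was 13.42 to 14.22 in vehicle and 15.61 to 16.15 in DQ-12 rats. Their part in the changes of Spp1, Atp6v0d2, Ctsk and Gpnmb was not tested. Of 8 osteoblast markers, 0 were called at any time point. Dmp1 and Ibsp, whose proteins belong to bone matrix, were well above background on 0 and 1 of 36 arrays. Others of that list were measured in these lungs, and Runx2 and Alpl were well above background on all 36 arrays. Of 7 platelet, 8 endothelial, 8 T and B cell, 8 muscle and 8 alveolar type 2 markers tested, 0 were called at any time point, and of 8 fibroblast markers 1 was called higher, at D1. By the adjusted p alone, 7 endothelial markers were lower at D180 (list median −0.61), as were 2 muscle markers (list median −0.83) and the platelet markers Clec1b (−0.96) and Gp9 (−0.54), while 4 alveolar type 2 markers were higher (list median 0.31). The fibroblast marker Postn was also lower at D180 (−0.99, limma adjusted p = 1.65e-05), with each exposed rat below each vehicle rat (fibroblast list median −0.08). Their part in the changes was not tested either.

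RefSeq promoter sequences (GRCr8) were listed for 6 of the 10 names, and are shown for the 4 of these genes whose groups were separated at D180. The 250 bases before the start were searched on both strands for TGANTCA (AP-1), GAGGAAG (PU.1), TCANGTG (the E-box type bound by MITF) and TGTGGT (RUNX), which are letters of sites that osteoclast regulators are known to bind. Matches are in capitals, and the sequences are given on the strand of the gene.
Spp1, chr14:5619805-5620054, minus strand: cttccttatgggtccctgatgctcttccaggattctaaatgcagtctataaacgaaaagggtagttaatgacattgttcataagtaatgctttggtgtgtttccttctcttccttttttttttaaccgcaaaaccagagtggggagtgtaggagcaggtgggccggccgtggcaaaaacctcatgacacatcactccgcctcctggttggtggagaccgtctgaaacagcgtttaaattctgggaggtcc
Ctsk, chr2:185747298-185747547, plus strand: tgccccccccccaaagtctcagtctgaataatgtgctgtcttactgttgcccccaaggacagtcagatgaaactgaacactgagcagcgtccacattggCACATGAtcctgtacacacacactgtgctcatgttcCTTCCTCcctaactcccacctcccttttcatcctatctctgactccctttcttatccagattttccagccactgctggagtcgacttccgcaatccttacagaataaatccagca
Gpnmb, chr4:79340878-79341127, plus strand: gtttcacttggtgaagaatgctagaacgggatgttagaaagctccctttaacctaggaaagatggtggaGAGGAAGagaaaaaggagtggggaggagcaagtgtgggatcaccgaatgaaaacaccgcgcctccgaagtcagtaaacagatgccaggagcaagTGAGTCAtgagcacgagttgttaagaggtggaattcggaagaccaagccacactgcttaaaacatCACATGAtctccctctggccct
Acp5, chr8:28943930-28944179, minus strand: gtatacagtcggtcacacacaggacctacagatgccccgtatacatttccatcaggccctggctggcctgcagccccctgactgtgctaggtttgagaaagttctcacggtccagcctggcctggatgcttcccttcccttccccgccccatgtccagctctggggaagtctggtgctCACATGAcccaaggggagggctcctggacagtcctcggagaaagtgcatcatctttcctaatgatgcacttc
CACATGA, the reverse complement of TCATGTG, was present in Ctsk, Gpnmb and in 1 of the 2 starts listed for Acp5, at 151, 22 and 72 bases before the start. In 33469 rat promoters of the same length, 11.5% held TCANGTG. Gpnmb also held TGAGTCA and GAGGAAG, and Ctsk held CTTCCTC, against 6.34% of promoters for TGANTCA and 10.2% for GAGGAAG. The Spp1 window held none of the 4 motifs, which says only that these letters are not in this window. No binding was measured on these arrays.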

How the data were processed

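Lung RNA of 36 rats was hybridized to 36 single-color Agilent arrays. The deposited intensity values were the output of Agilent Feature Extraction 12.0.1.1, which subtracted background from each spot. The authors also deposited a table of log2 values, which served as an alternative and whose scaling was not given in the sources used here. These values were compared with log2 intensity minus the 75th percentile of each array. After the median of each probe over the arrays was subtracted from both, they matched (r = 0.99997). The column medians of the deposited values were −0.154 to 0.228. The intensities were log2 transformed, outlier spots removed and spots of a probe averaged. Probes above the 95th percentile of 308 negative control spots on at least 6 arrays were kept, quantile normalized and reduced to the brightest probe per gene. All 6 groups were fitted together in limma 3.58.1 (R 4.3.3) with Benjamini–Hochberg adjustment over 23940 genes. No spot was saturated. The study names a batch correction without its variable, so none was applied, and scan date and slide were tried as blocks. Rat-to-rat correlations used 100000 permutations within time points. The labels name separate rats. The fit was tested on simulated data. The genes and lists were chosen with earlier results of these data known. Genes were named if in the set, if called in a list, if fixed as key regulators, or if among the 10 most like Spp1. Other genes named were chosen after their values were seen. A gene of the osteoclast pathway list is not reported here and was left out of its counts. Protein sequences were not used here.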

Additional observations from a re-analysis of the deposited data

Results flagged for a closer look

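For 54 combinations of gene and group, 3 held a rat that stood apart from the other 5, and chance alone would give about 1 in 20. All 3 genes were dim or measured on probes that disagreed. Oscar was 3.66 in DQ-12 replicate 2 at D30, where the next rat was at 2.33. Itgb3 was 5.20 in vehicle replicate 3 at D1, where the next was at 6.25. Dcstamp was 2.01 in vehicle replicate 3 at D30, where the next was at 3.67.

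The effect of DQ-12 met the call rule for a difference between time points in 4 genes. These are differences of the values that the set was chosen on, given as a description without a test. From D1 to D30 it grew for Atp6v0d2 by 1.33, and from D30 to D180 for Ctsk by 1.84. From D1 to D180 it grew for Atp6v0d2 by 2.20, for Acp5 by 1.14, for Ctsk by 2.63 and for Gpnmb by 1.07, all on the log2 scale. Scan dates of D1, D30 and D180 were separate, and with scan date as a fixed block the rule was no longer met by Gpnmb from D1 to D180 (1.49), Atp6v0d2 from D1 to D30 (1.24) or Ctsk from D30 to D180 (1.72).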

How the results depend on the processing

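Counts of called genes are given with the reported number first, and no called direction reversed under any alternative. For the 9 genes, 2 at D1 became 1 with scan date or slide as a fixed block or without the vehicle arrays of D1 scanned apart (an alternative chosen after seeing the data), each time by loss of Gpnmb, and 4 at D30 became 2 with normexp. Of the osteoclast pathway genes, 6 at D180 became 3 with slide as a fixed block. Of the Spp1 macrophage genes, 5 at D30 became 3 with scan date as a fixed block. Effects that met the rule for a difference from D1 to D30, which are a description, went from 1 to 0 with normexp, scan date as a fixed or random block, slide as a fixed block, or without the vehicle arrays scanned apart. From D30 to D180, 1 became 2 with normexp and 0 with either fixed block. From D1 to D180, fewer than 4 met it with slide as a fixed block or without the vehicle arrays scanned apart, fits that rest on 1 array of a group. Between vehicle groups, 2 from D1 to D30 became 1 with 75th percentile scaling, the deposited log2 values or the replicate block. They became 0 with normexp, the stricter filter or either random block, and so did the 1 from D1 to D180. Fixed blocks could not be fitted for vehicle groups, whose time points shared no scan date or slide.

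Leaving out each rat gave 2 to 3, 3 to 4 and 4 to 6 of the 9 genes at D1, D30 and D180, 0, 1 to 2 (2 without DQ-12 replicate 6 of D30) and 5 to 7 osteoclast pathway genes, and 2 to 3, 4 to 5 and 5 to 7 Spp1 macrophage genes. It gave 1, 1 and 3 to 4 differing effects, 0 to 2 and 0 to 1 vehicle differences, and 0 correlations with Spp1. The cause of these changes was not tested. Replicate numbers did not pair the rats: of 18 pairs of same-numbered arrays, 6 had a correlation of deviations above 0.1 (range −0.13 to 0.22), and the replicate block changed no call but that of Dcstamp between vehicle groups (1.31, limma adjusted p = 0.0516). Signals near background limit Oscar, Dcstamp and the vehicle level of Spp1.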

Other observations

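The 3 probes that carried the RefSeq accession of Ocstamp were looked at singly, an alternative chosen after seeing the data. A probe named Zfp334 had log2 changes of 0.33, 0.58 and 0.40 (SE 0.22) at D1, D30 and D180. The other Zfp334 probe had 0.70, 0.50 and 0.43 (SE 0.44), and the probe without a symbol was well above background on 1 of 36 arrays. None passed the adjusted threshold over all probes (limma, smallest adjusted p = 0.191).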
